A study of Mus musculus with 4 samples.

Results

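Aminoacyl tRNA synthetases are the enzymes that join each amino acid to its transfer RNA (tRNA), the step that supplies charged tRNA to the ribosome. Their genes were followed here in gastric corpus epithelium of mice given tamoxifen. Members were chosen by gene symbol alone, as genes whose probe sets carry exactly 1 symbol of the form used for these enzymes, such as Gars, Mars1 or Vars2, together with the subunit genes Farsa and Farsb, Fars2 and the joint glutamate and proline enzyme gene Eprs. This gave 35 of the 18193 genes measured, read by 72 probe sets, of which the one with the highest mean stood for the gene. A symbol ending in 2 marked 16 genes of mitochondrial enzymes, and the other 19 were taken as cytosolic.

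The mice were wild type, aged 6 weeks, and came from the FVB/N, BALB/c and C57BL/6 strains, and no label links a strain, a sex or a number of injections to an array. Tamoxifen, which binds the estrogen receptor, was injected intraperitoneally for 1 or 3 days at a dose of 5 mg per 20 g body weight to induce SPEM, spasmolytic polypeptide-expressing metaplasia. The vehicle was sunflower seed oil (90%) with ethanol (10%). Tamoxifen arrays were from 12 hours, from 2.5 days and from 4.5 days, and the vehicle array was from 2.5 days. Each of these 4 groups was 1 array of RNA pooled from 3 mice, so there was no spread between mice and no test, and differences describe these pools. All 3 comparisons with vehicle share its array, and at 12 hours and 4.5 days they also differ from it in time. Levels are log2 RMA values, on which a difference of 1 is 2-fold and one of 0.58 is 1.5-fold.

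The cytosolic and mitochondrial translation systems use separate synthetases, and nearly all the mitochondrial ones are encoded by nuclear genes of their own. Gars and Kars are exceptions, since each gives both the cytosolic and the mitochondrial enzyme, for glycine and for lysine. In the cytosol several synthetases, among them those of Eprs, Iars, Lars, Mars1, Qars, Rars and Kars, sit in a multisynthetase complex held by scaffold proteins. Transcription of many cytosolic synthetase genes is known to be raised by ATF4, the transcription factor of the integrated stress response, which binds composite elements in their promoters. In the corpus, chief cells are specialised for making secreted protein, and parietal cells are rich in mitochondria.

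Promoter letters were read because this element is known from some of the cytosolic genes. RefSeq promoter windows of 300 bases on GRCm38.p6, from 250 bases before a gene's start to 50 after it, were at hand for 26 of the 35 members, 12 cytosolic and 14 mitochondrial, and not for Cars, Hars, Hars2, Lars, Nars, Pars2, Rars, Vars and Wars. The letters TGATGNAA, the core of the ATF4 composite element, were searched on both strands. They were found in 5 of 12 cytosolic windows, 0 of 14 mitochondrial ones, 3.24% of the 14368 array genes with a window and 4.51% of all 27025 genes with one. The stretches that hold them are given 5′ to 3′ on the strand of the gene, with the matched letters in capitals. In Yars the match reads on the strand of the gene, and in the other 4 genes the capitals are its reverse complement. Each stretch stops at or before base 30 of the transcribed part.
Aars, chr8:111033690-111033777, plus strand: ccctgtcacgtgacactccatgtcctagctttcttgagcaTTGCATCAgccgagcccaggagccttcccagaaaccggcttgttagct
Gars, chr6:55037931-55038018, plus strand: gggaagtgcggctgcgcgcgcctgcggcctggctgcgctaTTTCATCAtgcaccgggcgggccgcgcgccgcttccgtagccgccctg
Iars, chr13:49682097-49682159, plus strand: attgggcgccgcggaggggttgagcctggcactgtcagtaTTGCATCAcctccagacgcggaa
Tars, chr15:11399629-11399713, minus strand: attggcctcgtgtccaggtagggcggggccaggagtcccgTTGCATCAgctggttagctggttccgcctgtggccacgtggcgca
Yars, chr4:129189866-129189932, plus strand: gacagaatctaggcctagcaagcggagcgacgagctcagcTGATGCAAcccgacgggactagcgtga

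Counting base 1 as the start, the match began at -112 in Aars, -30 in Gars and -15 in Tars, and in the transcribed part at 8 in Iars and at 4 in Yars. Aars held another match at 10. The E-box CACGTG, the core site of MYC and related factors, was in 4 of 12 cytosolic windows (Aars, Farsb, Iars and Tars), in 1 of 14 mitochondrial ones (Ears2) in 10.3% of array genes and in 8.09% of all genes. It does not share bases with the other motif in these genes, and Aars, Iars and Tars held both, against 0.300% of all genes. The ETS core CCGGAAG was in 5 of 12 cytosolic and 4 of 14 mitochondrial windows, against 15.03% of array genes and 9.93% of all genes. The palindromic site of NRF1, a factor known for genes of mitochondrial proteins, was in 0 of 12 and 0 of 14, against 1.75% of array genes and 1.07% of all genes. The windows of array genes are richer in G and C, with a median of 58.3%, against 52.7% over all windows. A match of letters describes the window and is no evidence of binding.

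Markers of several cell types differed between the arrays, and their part in the synthetase values was not tested. In bulk RNA fewer cells of a type and less RNA per cell cannot be told apart. The vehicle array held the parietal cell genes Atp4a and Atp4b, of the proton pump, at 13.38 and 14.19. The 12-hour array stood apart: 9 of 10 pancreatic acinar genes were at least 2-fold higher there than in vehicle, and 7 of 9 squamous genes at least 2-fold lower. The summed acinar level (log2) was 16.27 at 12 hours, 14.32 at 2.5 days and 13.15 at 4.5 days, against 14.82 in vehicle. In vehicle most of that sum was Clps, at 14.67. Parietal genes, 8 measured, summed to 14.11, 13.60 and 13.88 at these times, against 15.08 in vehicle, and chief cell genes, 5 measured, to 15.65, 14.68 and 13.22, against 15.77 in vehicle. Proliferation genes, 7 measured, summed to 11.92, 13.21 and 13.10, against 11.76 in vehicle, and 7 of 7 were past 2-fold at 2.5 days. Macrophage genes, 6 measured, summed to 11.22, 11.66 and 11.71, against 11.14 in vehicle, and smooth muscle genes, 6 measured, to 14.66, 14.42 and 14.45, against 15.04 in vehicle. In these 7 lists no gene was below the array median on all 4 arrays.

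At 2.5 days, the time matched with vehicle, all 19 cytosolic synthetase genes lay above vehicle, by a median of 0.38 on the log2 scale, and 18, with Yars the exception, once the arrays were shifted to equal medians of expressed genes. Of all expressed genes, those at or above the array median on the brighter array, 52.5% lay above vehicle and the median difference was 0.02. The 16 mitochondrial genes had a median difference of 0.05, which was just below 0 after that shift, with 9 above vehicle and 7 below, where 47.3% of expressed genes were below. The cytosolic differences were mostly small. At or past 1.5-fold higher were 3 of 19 cytosolic genes (15.8%) and 2 of 16 mitochondrial genes (12.5%), against 9.69% of expressed genes. With arrays shifted to equal medians there was 1 of each, and 1 of each also with the mean of a gene's probe sets. The mitochondrial genes were Yars2 and Mars2, and Mars2 was not among the expressed genes. At or past 2-fold higher was 1 cytosolic gene, Vars, against 3.32% of expressed genes. No member was 1.5-fold lower, where 6.03% of expressed genes were, and 1.94% were 2-fold lower. The summed level (log2) was 13.81, 14.13 and 14.12 for cytosolic genes in time order, against 13.74 in vehicle, and 11.14, 11.47 and 11.42 for mitochondrial genes, against 11.41 in vehicle. The proliferation genes, like both sets of synthetases, had higher sums at 2.5 and 4.5 days than at 12 hours or in vehicle. For the mitochondrial set the sums were only narrowly above vehicle. A link to proliferation was not tested.

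For scale, over expressed genes the closest pair of arrays, 4.5 and 2.5 days, had differences with a robust SD of 0.15, and against vehicle that SD was 0.27, 0.35 and 0.39 in time order. Between tamoxifen and vehicle arrays the SD over 18 hybridisation controls was 0.08 to 0.10, and over 27 poly-A controls 0.17 to 0.20. The hybridisation controls were also offset as a group. Their mean difference from vehicle was 0.04, -0.13 and -0.16 in time order, the last 2 larger in size than their SD. Between 2.5 days and 12 hours that mean was -0.17. For the poly-A controls the mean difference from vehicle was 0.04, 0.04 and 0.06.

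Vars, the gene of the cytosolic valine enzyme, differed most. Its level was 9.09 at 12 hours, 9.51 at 2.5 days and 9.52 at 4.5 days of tamoxifen, against 8.41 in vehicle. All tamoxifen arrays were higher than vehicle, by 1.60-fold, 2.15-fold and 2.16-fold in that order. Of expressed genes 2.64% differed upward by as much or more at 2.5 days. Vars was read by 1 probe set, so no other probe set checks it.

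Hars, of the histidine enzyme, was at 9.79, 10.35 and 10.45 on the tamoxifen arrays in time order, against 9.72 in vehicle. Eprs was at 9.28, 9.84 and 9.73 at these times, against 9.23 in vehicle. Kars was at 8.77, 9.25 and 9.33, against 8.67 in vehicle. These genes were within 0.10 of vehicle at 12 hours and above it at both later times. Their differences at 2.5 days were 0.63 for Hars, 0.61 for Eprs and 0.57 for Kars, the last just short of 1.5-fold. Other probe sets above the array median gave 0.43 for Hars and 0.27 and 0.45 for Eprs, all short of 1.5-fold.

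The cytosolic phenylalanine enzyme has 2 kinds of subunit. Farsa, the catalytic alpha subunit, was at 7.46, 7.998 and 8.02 at the 3 times, against 7.43 in vehicle. Farsb, the beta subunit, was at 9.76, 10.53 and 10.54, against 10.09 in vehicle. On these probe sets Farsb was below vehicle at 12 hours by 0.33, Farsa was not, and both were above it later. The 4 probe sets of Farsb ranged from -0.39 to 0.01 at 12 hours, so 1 of them lay at vehicle's level. The 3 Farsa probe sets above the array median disagreed in sign at 2.5 days, at -0.30, -0.02 and 0.57. All 4 probe sets of Farsb were higher at 2.5 days, by 0.44 to 0.71.

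Cars, of the cysteine enzyme, was at 6.73, 6.83 and 6.88 at the 3 times, against 6.31 in vehicle. It was thus above vehicle by 0.42 already at 12 hours, and of the cytosolic genes only Vars had a larger difference there. Aars, of the alanine enzyme, differed by 0.49 at 2.5 days and 0.34 at 4.5 days, and its other probe set by 0.24 and 0.16. Iars, of the isoleucine enzyme, differed by 0.40 and 0.29, Lars, of the leucine enzyme, by 0.35 and 0.32, Tars, of the threonine enzyme, by 0.34 and 0.29, and Nars, of the asparagine enzyme, by 0.28 and 0.29. Both Gars, of the glycine enzyme, and Rars, of the arginine enzyme, were higher on every tamoxifen array. Gars was at 10.39, 10.52 and 10.47, against 10.15 in vehicle, and Rars at 9.09, 9.24 and 9.44, against 8.86 in vehicle. Qars, of the glutamine enzyme, differed by 0.34 and 0.20, but the 3 brighter of its 4 probe sets lay at -0.33, 0.34 and 0.40 at 2.5 days.

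Nearest to vehicle at 2.5 days were Yars, Sars and Mars1, of the tyrosine, serine and methionine enzymes. Yars was at 8.92, 8.99 and 9.01 at the 3 times, against 8.96 in vehicle. Sars was at 9.49, 9.41 and 9.31, against 9.34 in vehicle. Mars1 was at 8.74, 9.08 and 8.95, against 8.90 in vehicle. Every difference from vehicle of Yars and Sars was within 0.15, and those of Mars1 within 0.18.

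**Figure D1:**
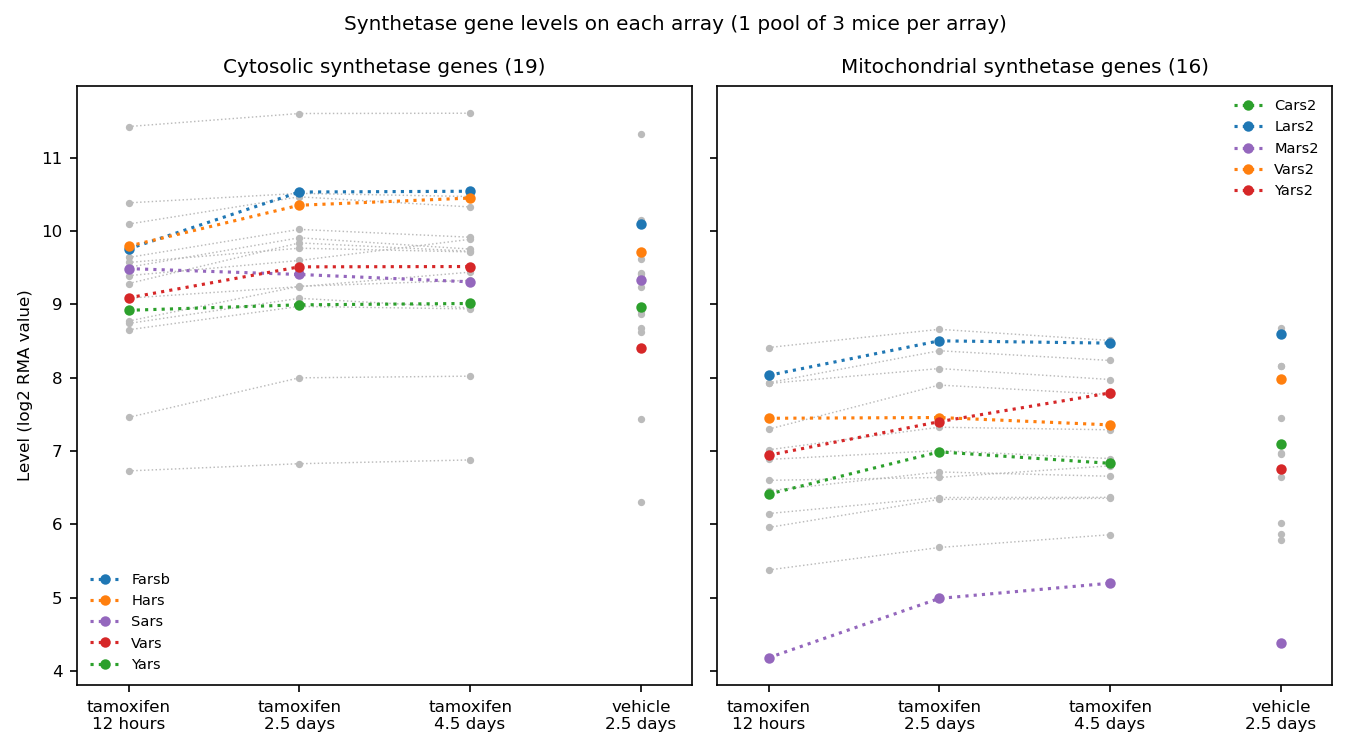
Level (log2 RMA value, vertical axis) of each synthetase gene on each of the 4 arrays, cytosolic genes left and mitochondrial genes right; each point is 1 array of 3 pooled mice, dotted lines join the 3 tamoxifen times, and grey points are the genes not coloured. Vars at 2.5 and 4.5 days (9.51 and 9.52) stands above vehicle (8.41), whereas Vars2 (7.46 and 7.36) stands below it (7.98).

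At 12 hours the cytosolic genes lay close to vehicle, with a median difference of 0.07 and 15 of 19 above it, against 44.4% of expressed genes above it. Mitochondrial genes had a median of -0.22 with 13 of 16 below vehicle, against 55.4% of expressed genes, and 3 of 16 were above vehicle: Yars2, Ears2 and Sars2. At or past 1.5-fold higher was 1 cytosolic gene, Vars at 0.68, against 3.37% of expressed genes. At or past 1.5-fold lower was 1 mitochondrial gene, Cars2 at -0.69, against 5.66% of expressed genes. The other Cars2 probe set above the array median was at -0.20. No member passed 2-fold in either direction, where 0.996% of expressed genes were higher and 1.92% lower. These values come from the array on which the acinar genes stood apart.

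At 4.5 days the cytosolic median was 0.34, with 18 of 19 genes above vehicle and Sars at -0.03, against 49.4% of expressed genes above it. The mitochondrial median was 0.04, with 9 of 16 above vehicle and 7 below, where 50.4% of expressed genes were below. At or past 1.5-fold higher were 4 cytosolic genes (21.1%), Vars at 1.11, Hars at 0.73, Kars at 0.65 and Farsa at 0.59, and 2 mitochondrial genes, against 10.7% of expressed genes. Rars stood just outside at 0.577. At or past 1.5-fold lower was 1 member, Vars2, against 8.21% of expressed genes. At or past 2-fold higher were Vars and Yars2, against 3.8% of expressed genes, and no member was 2-fold lower, where 2.72% of expressed genes were.

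**Figure D2:**
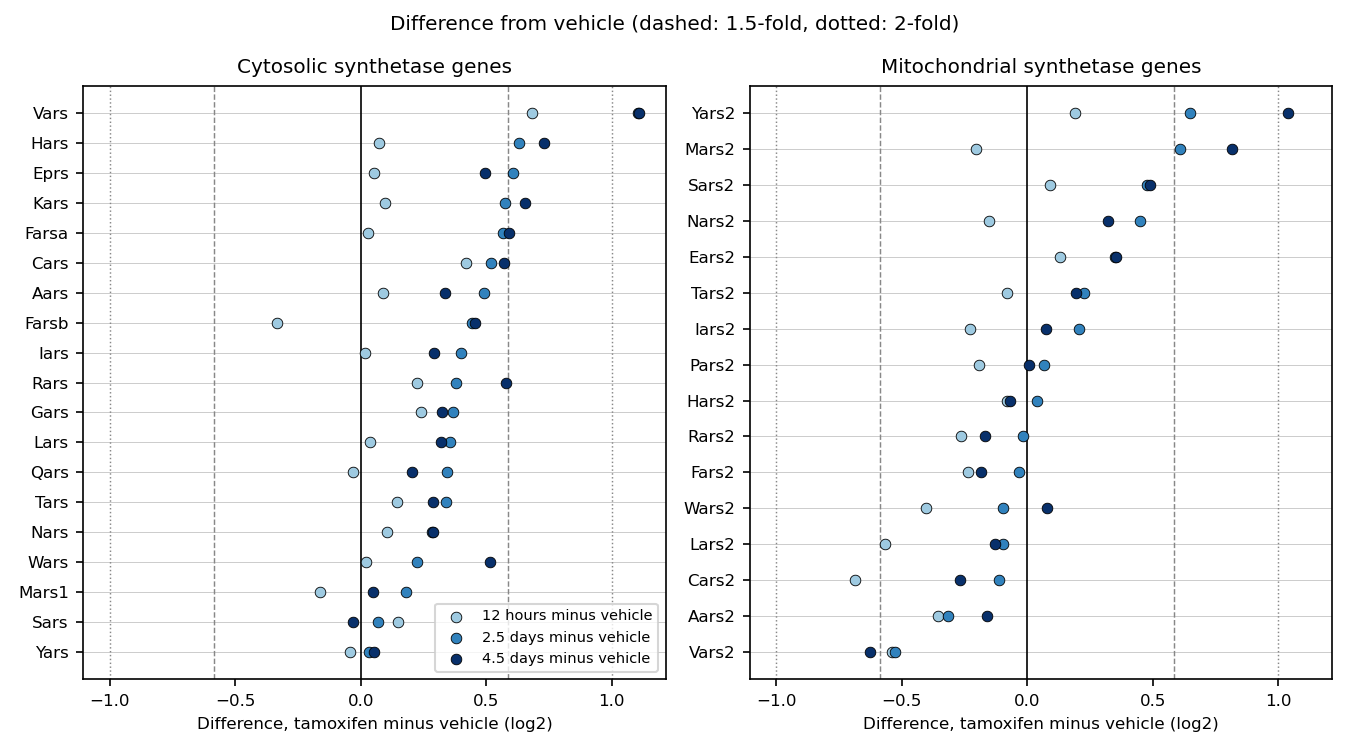
Difference of each synthetase gene from vehicle (tamoxifen minus vehicle, log2, horizontal axis) at each time, with genes in order of the 2.5-day difference; dashed lines mark 1.5-fold and dotted lines 2-fold. All 19 cytosolic genes lie right of 0 at 2.5 days (18 with arrays shifted to equal medians), and the 16 mitochondrial genes spread from -0.53 to 0.65.

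Among mitochondrial enzymes, Yars2, of the tyrosine enzyme, differed most. Its level was 6.94 at 12 hours, 7.40 at 2.5 days and 7.79 at 4.5 days, against 6.75 in vehicle. The differences were 0.19, 0.65 and 1.04, in time order, and its other probe set gave 0.46, 0.88 and 1.17. Mars2, of the methionine enzyme, was at 4.18, 4.99 and 5.20, against 4.38 in vehicle. All 4 of these Mars2 values were under the median of their array, and its other, dimmer probe set differed by -0.05 at 2.5 days. Sars2, of the serine enzyme, was at 5.96, 6.34 and 6.35, against 5.86 in vehicle. Nars2, of the asparagine enzyme, was at 7.30, 7.90 and 7.77, against 7.45 in vehicle, and so lay above it at the later times. Ears2, of the glutamate enzyme, differed by 0.35 at both later times. Of its 2 probe sets above the array median the other gave -0.40 and -0.28. That other probe set was above the median only in vehicle, which favours values below vehicle.

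Vars2, of the valine enzyme, was at 7.45, 7.46 and 7.36 at the 3 times, against 7.98 in vehicle. It was lower on every tamoxifen array, by 0.43 to 0.81 over its 2 probe sets and the 3 times. Cars2, of the cysteine enzyme, was at 6.41, 6.99 and 6.83, against 7.10 in vehicle. Lars2, of the leucine enzyme, was at 8.03, 8.50 and 8.47, against 8.60 in vehicle. On these probe sets both were lowest at 12 hours and within 0.27 of vehicle later. The other Cars2 probe set above the array median differed by -0.20, -0.28 and -0.37, and so was lowest at 4.5 days. Aars2, of the alanine enzyme, differed by -0.36, -0.32 and -0.16. Wars2, of the tryptophan enzyme, differed by -0.40, -0.10 and 0.08, and its dimmer probe set by 0.29, 0.65 and 0.54. Rars2, Fars2, Hars2, Pars2, Iars2 and Tars2, of the arginine, phenylalanine, histidine, proline, isoleucine and threonine enzymes, lay between -0.26 and 0.23 at all 3 times.

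Several probe sets above the array median on at least 1 array read 11 cytosolic and 7 mitochondrial genes. In the cytosolic genes all of them were higher than vehicle in 8 genes at 12 hours and in 9 at each later time, and the others had mixed signs. In the mitochondrial genes all were lower in 5 at 12 hours, 2 at 2.5 days and 3 at 4.5 days, and all were higher in 1, 3 and 2. A probe set of Cars passed that limit only at 4.5 days, 1 of Farsb only at 2.5 days and 1 of Ears2 only in vehicle. Passing on a single array favours the sign seen in comparisons with that array, so these probe sets are no check there.

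Cytosolic and mitochondrial genes for the same amino acid were then set side by side, in 16 pairings that use Fars2 for both Farsa and Farsb. The cytosolic gene had the higher difference from vehicle in 13 pairings at 12 hours and in 12 at 2.5 and at 4.5 days. The median of cytosolic minus mitochondrial was 0.25, 0.36 and 0.44 at these times. The widest pairing was that of valine. There Vars minus Vars2 came to 1.22 at 12 hours, 1.63 at 2.5 days and 1.74 at 4.5 days, with Vars above vehicle and Vars2 below it on every tamoxifen array. For cysteine, Cars minus Cars2 was 1.11, 0.63 and 0.84, and for alanine Aars minus Aars2 was 0.45, 0.81 and 0.50. The other Cars2 probe set above the array median lay nearer to vehicle at 12 hours, at -0.20 and not -0.69.

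In 4 pairings the order was the other way at 2.5 and 4.5 days. Yars minus Yars2 was -0.62 and -0.99, Mars1 minus Mars2 -0.43 and -0.77, Sars minus Sars2 -0.41 and -0.52, and Nars minus Nars2 -0.17 and -0.03. At 2.5 days the 3 cytosolic genes nearest to vehicle, Yars, Sars and Mars1, were thus paired with mitochondrial genes 0.65, 0.48 and 0.61 above it. The last of these, Mars2, was dim on every array, and its other probe set did not show this difference.

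**Figure D3:**
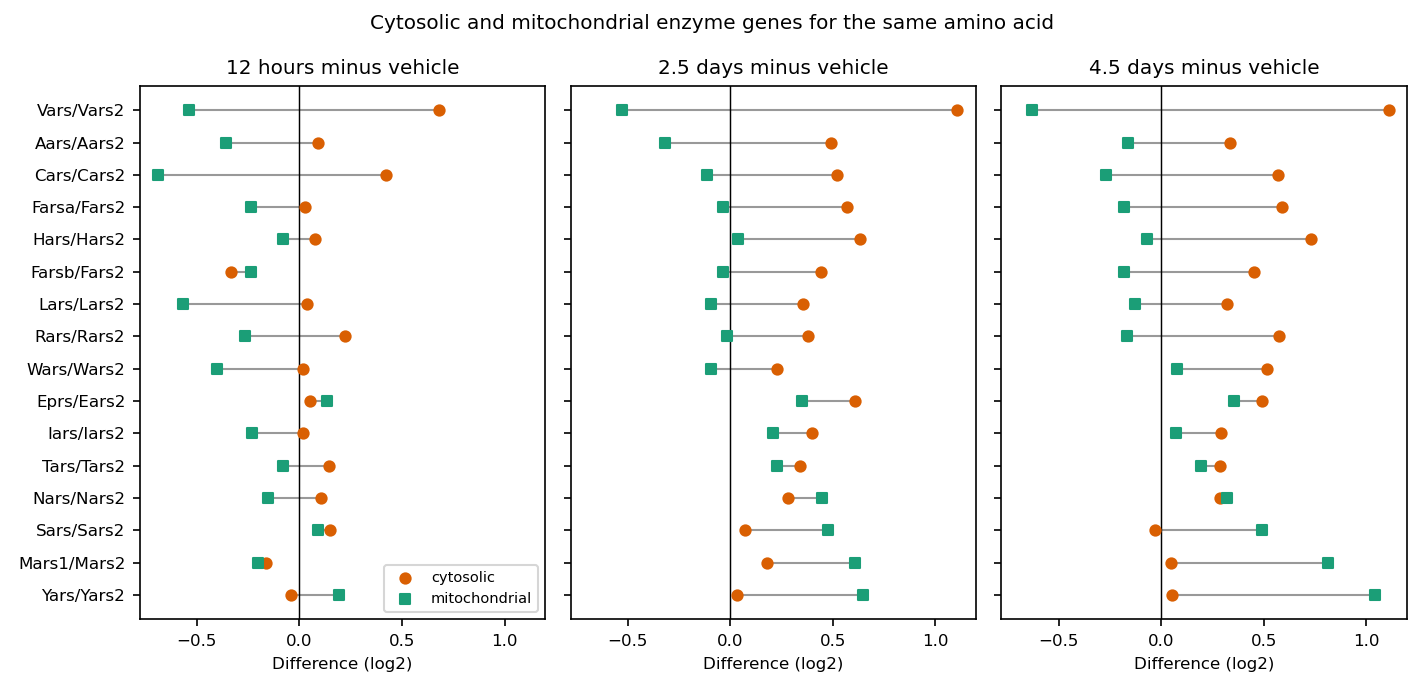
Difference from vehicle (tamoxifen minus vehicle, log2, horizontal axis) of the cytosolic (circles) and mitochondrial (squares) gene for the same amino acid at each time. Valine has the widest gap (1.63 at 2.5 days), and tyrosine, methionine, serine and asparagine are turned round at 2.5 and 4.5 days.

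The 2.5-day array was above the 12-hour array by a median of 0.34 for cytosolic and 0.31 for mitochondrial genes. Without probe sets whose suffix marks shared sequence the cytosolic median was 0.19, and cytosolic minus mitochondrial -0.19. All 16 mitochondrial and 18 of 19 cytosolic genes were higher, with Sars the exception, or 14 and 16 with arrays shifted to equal medians, against 59.4% of expressed genes higher and 40.4% lower. The array medians taken over expressed genes were themselves 0.12 apart in that direction, and in the other 4 comparisons they were -0.06 to 0.05 apart. At or past 1.5-fold higher were Mars2 at 0.81, Farsb at 0.78 and Nars2 at 0.60, against 7.52% of expressed genes. No member was 1.5-fold lower, where 2.28% of expressed genes were, and none was past 2-fold, where 2.58% were higher and 0.655% lower. At 4.5 days against 2.5 days the medians were 0.00 and -0.05, with 10 of 19 cytosolic and 6 of 16 mitochondrial genes higher, against 43.5% of expressed genes higher and 56.2% lower. No member was past 1.5-fold, where 0.933% of expressed genes were higher and 1.17% lower, or past 2-fold, where 0.248% and 0.182% were. The largest steps there were Yars2 at 0.39 and Wars, of the tryptophan enzyme, at 0.29. In all, 26 of 35 members were within 0.15 between these arrays. That limit is about the robust SD of all expressed genes for this pair. The share of expressed genes within it was not counted, so the number does not set the members apart.

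Wars, a gene known to respond to interferon, was at 9.39, 9.60 and 9.89 at the 3 times, against 9.37 in vehicle. Its 4 probe sets differed by 0.49 to 0.66 at 4.5 days, so all were higher. The 8 interferon response genes measured had medians of 0.94, 1.90 and 1.55. Of these, 6 of 8 were past 2-fold higher at both later times, against 3.32% and 3.8% of expressed genes. The summed level (log2) of that list was 10.85, 11.37 and 11.50, against 10.10 in vehicle. At 4.5 against 2.5 days 6 of 8 of its genes were higher, as Wars was, against 43.5% of expressed genes. Among the 6, Oasl2 differed by only 0.02, and Irf7 and Ifit3 were lower, at -0.49 and -0.48. Unlike Wars, the list's median difference from vehicle was smaller at 4.5 days. A link of Wars to interferon was not tested here.

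The cytosolic genes were also divided by structure and partners. Class I enzymes, with 10 genes, had medians of 0.03, 0.37 and 0.41 at the 3 times, and class II, with 9, of 0.10, 0.44 and 0.34. Eprs, the joint glutamate and proline enzyme gene, was counted in class I only. The 7 measured genes of the multisynthetase complex had medians of 0.04, 0.38 and 0.32, and the 12 cytosolic genes outside it of 0.10, 0.41 and 0.39. Both divisions parted the medians by less than 0.15, the robust SD of single-gene differences between the closest pair of arrays. That SD gives a scale only and does not measure the spread of a median. At 2.5 and 4.5 days the complex scaffold genes lay further above vehicle than the median enzyme. Aimp1 differed by 0.04, 0.64 and 0.61, Aimp2 by 0.26, 0.58 and 0.66, and Eef1e1 by 0.14, 0.73 and 0.80. All 3 were past 1.5-fold at 4.5 days, and none was past 2-fold at any time.

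A further division was by ATF4. The 13 cytosolic genes listed as ATF4 targets in other cells had medians of 0.09, 0.35 and 0.32, and the other 6 cytosolic genes, Farsa, Farsb, Hars, Kars, Qars and Rars, of 0.05, 0.51 and 0.58. By promoter letters, the 5 genes that hold TGATGNAA had medians of 0.09, 0.37 and 0.29, and the 7 cytosolic genes whose window lacks it of 0.03, 0.44 and 0.45. By these medians the listed targets lay above the other genes at the earliest time (0.09 against 0.05) and below them at 2.5 and 4.5 days. The genes with the letters likewise lay above those without at the earliest time (0.09 against 0.03) and below them later. Single genes varied. Vars, a listed target with no window at hand, differed by 1.10 at 2.5 days and Aars, which holds the letters, by 0.49. Yars, whose stretch is given above, differed by 0.05 at most. The part of ATF4 in these values was not tested.

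The 18 other ATF4 targets measured had medians of 0.51 at 12 hours and 0.30 at both later times. Past 2-fold higher at 12 hours were 4 of the 18, against 0.996% of expressed genes, on the array where the acinar genes stood apart. They were Slc7a11, the cystine transporter, at 2.33, Nupr1 at 1.997, Atf3 at 1.48 and Psat1, of serine synthesis, at 1.03. In vehicle Slc7a11 was at 3.59, under the array median of 5.31, so its differences start from a dim value. At 4.5 days 5 were past 2-fold higher, against 3.8% of expressed genes. Among them were Slc7a11 at 3.42, Psat1 at 2.46 and Shmt2, of serine and glycine metabolism, at 1.20. Nupr1 was lower at -1.85, where 2.72% of expressed genes were past 2-fold lower. Atf4 itself differed by 0.28, 0.06 and 0.01, and Asns, of asparagine synthetase, by -0.05, 0.17 and 0.02. Between 2.5 days and 12 hours 9 of these 18 genes were higher, against 59.4% of expressed genes, with a median of -0.01. Of 6 measured genes of eIF2 alpha kinases and phosphatase subunits none passed 2-fold, with medians of -0.04, -0.07 and -0.18. Of 11 amino acid transporter genes none passed 2-fold, with medians of 0.25, 0.27 and 0.28.

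Other parts of cytosolic translation lay above vehicle to a like degree at 2.5 and 4.5 days. The 15 genes listed for initiation had medians of 0.10, 0.43 and 0.44. All 15 were above vehicle at both later times, against 52.5% and 49.4% of expressed genes. The list holds initiation factors and also Eif4ebp1, whose protein inhibits initiation, at 0.93, 0.43 and 0.45. The 4 elongation factor genes had medians of 0.07, 0.37 and 0.43, and the 43 cytosolic ribosomal protein genes of 0.06, 0.28 and 0.26. Of these 3 lists 1 gene passed 2-fold, Rpl12 at 1.20 at 4.5 days. Genes of tRNA maturation and export, 16 measured, had medians of 0.08, 0.60 and 0.63. Past 2-fold were Pop1, of RNase P and MRP, at 1.37 and 1.56, Rpp40, of the same enzymes, at 1.07 at 2.5 days, and Wdr4, of tRNA methylation, at 1.21 at 4.5 days. RNA polymerase III transcribes tRNA genes. A list of 14 genes of its subunits, its transcription factors and its repressor Maf1 had medians of 0.00, 0.19 and 0.14, with none past 1.5-fold. Maf1 itself differed by 0.12, -0.23 and -0.39. Of these lists the 12 ribosome biogenesis genes were furthest above vehicle, with medians of 0.53, 1.10 and 1.16. Past 2-fold were 8 of them at both later times, against 3.32% and 3.8% of expressed genes.

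Other mitochondrial translation genes also had medians below vehicle at 12 hours. The 76 mitochondrial ribosomal protein genes had medians of -0.16, 0.20 and 0.18, and 15, 55 and 56 of them lay above vehicle at the 3 times. The 10 mitochondrial translation factor genes had medians of -0.13, 0.20 and 0.16. The 3 genes of the transamidase that completes glutamine tRNA in mitochondria had medians of -0.51, -0.05 and -0.03. No gene of these 3 lists passed 2-fold at any time. Tarsl2, a relative of Tars, differed by -0.98, 0.11 and -0.20, so its 12-hour value stood apart. It belongs with Aarsd1, Dtd1, Prorsd1 and Sars to a list of editing and related genes, whose median was -0.24, 0.11 and -0.01 over 5 genes.

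**Figure D4:**
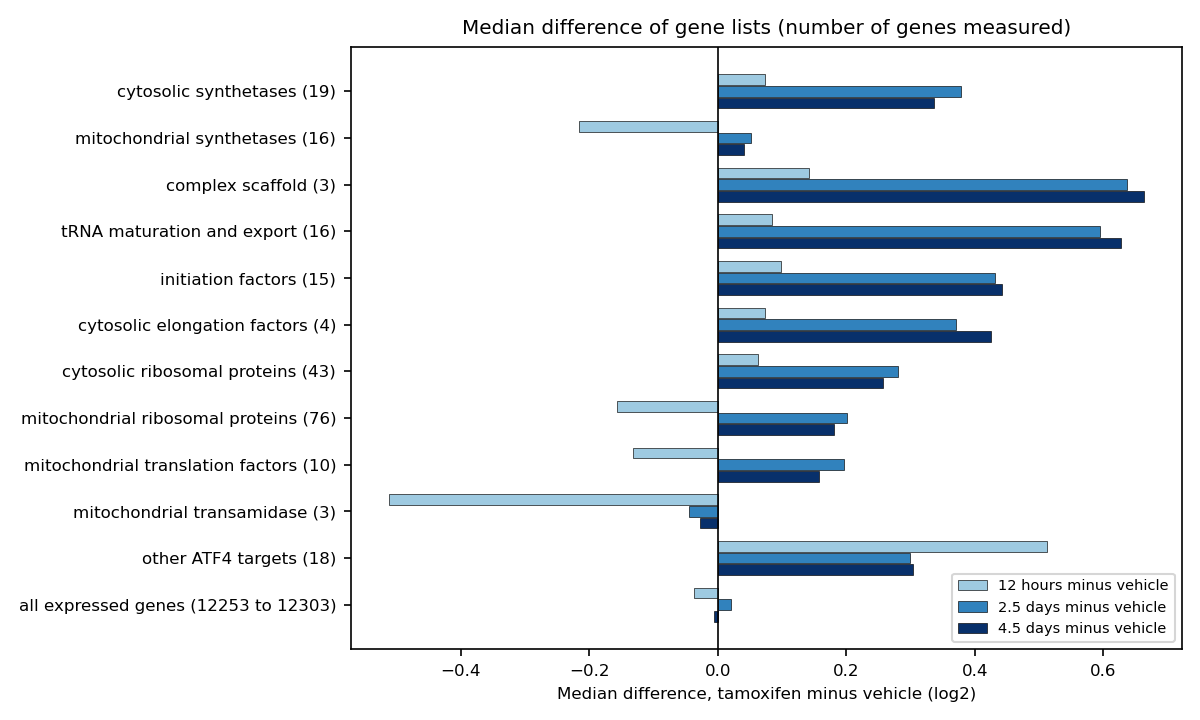
Median difference from vehicle (tamoxifen minus vehicle, log2, horizontal axis) of the synthetase genes and of other translation and stress lists at the 3 times, with the number of genes measured in parentheses. Cytosolic lists lie right of 0 at 2.5 and 4.5 days, and mitochondrial lists lie left of 0 at 12 hours.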

How the data were processed

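The values used are log2 expression of 45101 probe sets on an Affymetrix mouse array, as deposited. The submitters' processing notes name RMA and Partek, and no version is given in the sources used here. RMA gives all arrays 1 distribution, which hides a shift common to most genes, and it compresses dim ones. No label states the log base, and values between 2.06 and 14.85 were read as base 2. Gene symbols came from the platform annotation, and all 35 members matched a current gene ID.

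Differences of log2 values were taken for 5 comparisons with Python 3.11.15, pandas 2.3.3 and numpy 2.4.6, and genes past 1.5-fold and 2-fold were counted. The functions were tested on simulated data. The number of arrays limits the precision. Promoter sequences are RefSeq's, on GRCm38.p6.

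The members and lists were chosen with earlier results of these data known. Given in full were, per comparison, the 5 cytosolic and 3 mitochondrial genes with the largest absolute difference and members past 2-fold, with other members by values or range. Other lists' genes were named past 2-fold, at most 4 a list. Scaffold genes, Atf4, Asns, Atp4a, Atp4b, Clps, Tarsl2, Maf1 and Eif4ebp1 were named after their values were seen. The E-box, ETS and NRF1 searches and counts above 0 were added then too.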

Additional observations from a re-analysis of the deposited data

Results flagged for a closer look

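On the tamoxifen arrays 5 synthetase genes stood on opposite sides of vehicle at 12 hours and later, by at least 0.15 (log2) each way, the robust SD of the closest pair of arrays. The SD over poly-A controls was larger, at 0.17 to 0.20. The robust SD of expressed genes against vehicle was larger still, at 0.27 to 0.39. The share of all expressed genes that stood on opposite sides in this way was not counted. The 5 genes are thus not set apart from other genes. With 1 array a time the difference between times was not tested against spread between mice. Farsb was at -0.33 relative to vehicle at 12 hours, 0.44 at 2.5 days and 0.45 at 4.5 days, but 1 of its other probe sets was at 0.01 at 12 hours. Mars2, dim on every array, was at -0.20, 0.61 and 0.82 at these times. Nars2 was at -0.15, 0.45 and 0.32. Iars2 was at -0.23 at 12 hours and 0.21 at 2.5 days, and Mars1 at -0.16 and 0.18.

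A probe set that the platform annotation gives to both Aars and Exosc6, a gene of the RNA exosome, entered no comparison because it names 2 genes. Its level was 7.74 at 12 hours, 8.56 at 2.5 days and 8.79 at 4.5 days of tamoxifen, against 7.34 in vehicle. It lay above vehicle by 0.40, 1.22 and 1.45, and the probe set used for Aars by 0.09, 0.49 and 0.34.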

How the results depend on the processing

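With 1 array a group, there was no replicate to leave out, and 1 array decides every value. No paired analysis was possible because each group had 1 array. Each alternative changed 1 choice, and a value was taken as moved when it shifted by over the SD of the hybridisation controls, or a count by over 1.5 times. The cause of the moves was not tested, except where fewer genes entered.

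With the mean of all probe sets of a gene, the cytosolic genes at least 1.5-fold higher at 2.5 days numbered 1 and not 3. The mitochondrial ones numbered 1 at 2.5 days, 1 at 4.5 days and 0 between 2.5 days and 12 hours, and those 1.5-fold lower at 4.5 days 0. The cytosolic minus mitochondrial median at 4.5 days was 0.40 and not 0.30. With each gene read from the probe set whose absolute difference was the median one, the medians at 2.5 days were 0.28 for cytosolic and -0.040 for mitochondrial genes, and the cytosolic median between 2.5 days and 12 hours was 0.18. Cytosolic genes at least 1.5-fold higher then numbered 1 at 2.5 days and 2 at 4.5 days. Mitochondrial ones numbered 1 at 2.5 days, 1 at 4.5 days and 0 between 2.5 days and 12 hours, with 0 lower at 12 hours and 0 at 4.5 days. Mars2 turned to -0.047 at 2.5 days, read there from its other, dimmer probe set.

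With arrays shifted to equal medians, 1 cytosolic and 1 mitochondrial gene were 1.5-fold higher at 2.5 days, and 1 mitochondrial gene between 2.5 days and 12 hours. With members at or above the array median, which drops Mars2, 1 mitochondrial gene was 1.5-fold higher at 2.5 days, 1 at 4.5 days and 1 between 2.5 days and 12 hours. At or above the 75th percentile, 6 or 7 mitochondrial genes were left. Above vehicle were 0 of 6 at 12 hours, 2 of 6 at 2.5 days and 3 of 7 at 4.5 days, and higher in the steps were 6 of 6 and then 1 of 7. Their medians were -0.025 at 2.5 days, -0.13 at 4.5 days and -0.13 between 4.5 and 2.5 days. Cytosolic minus mitochondrial was 0.46 at 4.5 days and 0.11 between 4.5 and 2.5 days. Past 1.5-fold were 0 lower at 12 hours and, higher, 0 at 2.5 days, 1 at 4.5 days and 1 between 2.5 days and 12 hours. Without probe sets whose suffix marks shared sequence, 1 mitochondrial gene was 1.5-fold higher at 2.5 days, 1 at 4.5 days, and 0 were 2-fold higher at 4.5 days, where Yars2 dropped out. The cytosolic median between 2.5 days and 12 hours was 0.19 there, and cytosolic minus mitochondrial -0.19.

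Leaving out Gars and Kars, Wars, or Vars and Yars2, the last chosen after the data were seen, moved none of the medians computed without them. Over all genes, keeping those at or above the 75th percentile left, for 12 hours against vehicle, 76 at least 2-fold higher (main 122) and 243 at least 1.5-fold higher (main 413), and for 2.5 days against vehicle 271 at least 2-fold higher (main 408). Between 2.5 days and 12 hours 188 were 2-fold higher (main 315), 582 were 1.5-fold higher (main 918) and 171 lower (main 278). Between 4.5 and 2.5 days 14 were 2-fold higher (main 30), 59 were 1.5-fold higher (main 113) and 70 lower (main 142). Of the values of single genes, 839 stayed within the control SD, 132 moved and 1, that of Mars2, changed sign while past 1.5-fold. Many of the 839 could not move. The level filters, with 170 and 122 values, leave a value as it is, and the array shift, with 175, was smaller than that SD in every comparison. Genes with 1 probe set could not move by choice of probe set. With the mean of probe sets 56 values moved and 119 stayed, and with the median absolute difference 46 moved and 128 stayed. Dim probe sets limit Mars2, Wars2 and Ears2.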
